A study of Mus musculus with 12 samples.

Results

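The genes described here mark the epithelium of the distal nephron and the collecting duct. They are 10 genes taken by symbol from the gene counts of isolated mouse glomeruli: Slc12a1, Umod, Kcnj1 and Cldn16 of the thick ascending limb, Slc12a3 and Calb1 of the distal convoluted tubule, Aqp2, Aqp3 and Scnn1b of the principal cells of the collecting duct, and Atp6v1g3 of its intercalated cells. All 10 were found among 26264 gene symbols, and all 10 passed the filter on low counts that left 16612 genes for testing. They were named as markers of their segments, with earlier results of these data known.

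RNA was sequenced from glomerulus-enriched kidney tissue of male mice of 2 kinds, BALB/cByJcl (ByJcl below) and BALB/cAjcl (Ajcl below), both substrains of the albino BALB/c inbred strain, at 8 weeks of age. Untreated mice gave the baseline libraries. The Day 5 libraries came from other mice of the same substrains, killed 5 days after 1 intravenous injection of adriamycin (ADR, doxorubicin, a podocyte-toxic anthracycline) at 10 mg/kg. There were 3 libraries in each of the 4 groups, 12 in all, and no vehicle-injected library among them.

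The thick ascending limb reabsorbs sodium chloride without water, the distal convoluted tubule adjusts sodium, magnesium and calcium, and the collecting duct sets the final water and acid content of the urine under vasopressin and aldosterone. They are not typical genes of podocytes, mesangial cells or glomerular capillaries, and in a preparation of glomeruli they serve as markers of tubule. The thick ascending limb and the start of the distal convoluted tubule touch the glomerulus at its vascular pole, where the macula densa lies. In such bulk tissue, fewer cells of a type and less RNA per cell cannot be told apart.

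Total counts per library ranged from 42198416 to 54687045 (median 46915194). Levels are given as CPM (a gene's counts relative to its library's total), scaled with edgeR's TMM factors. Summed over 8 podocyte genes they ranged from 7131 to 20865 CPM, which marks the tissue as glomerular, and this sum exceeded that of 18 proximal tubule genes in all libraries but Ajcl Day 5 replicate 1 (9179.5 against 12069 CPM). The tubular content was uneven. The proximal tubule sum ranged from 2482 to 12069 CPM in the 6 Ajcl libraries and from 743 to 4297 CPM in the 6 ByJcl libraries. Ajcl Day 5 replicate 1 had the highest sum, and replicate 1 of both ByJcl groups had the lowest sums. That Ajcl library was left out of the study's main comparisons for a low ratio of podocyte to tubular markers. Slc12a1, Umod and Aqp2 were among those markers, so leaving it out would select libraries on genes measured here. It was kept, and the counts of called genes in the model of the 4 groups are also given without it.

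The 10 genes lie on 8 chromosomes, and their positions in GRCm39, from the GENCODE annotation, are as follows. Slc12a1 is at chr2:124994425-125071922 on the plus strand, Umod at chr7:119061934-119078505 on the minus strand, Kcnj1 at chr9:32283789-32310493 on the plus strand and Cldn16 at chr16:26281885-26301515 on the plus strand. Slc12a3 is at chr8:95055829-95094170 and Calb1 at chr4:15881155-15908085, both on the plus strand. The collecting duct genes are Aqp2 at chr15:99476936-99485016 (plus), Aqp3 at chr4:41092722-41098183 (minus), Scnn1b at chr7:121463946-121517737 (plus) and Atp6v1g3 at chr1:138201461-138217200 (plus). All are protein-coding. Exons of Umod and Aqp2 overlap a predicted gene on the other strand by 539 and 665 bases, and the strand setting of the counting is not given in the sources used here, so reads of these partners cannot be told apart. No member shares exon bases with another gene on its own strand.

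The stretch before the start of 1 gene of each segment is shown as a description, and its link to the levels was not tested. RefSeq promoter sequences (250 bases before to 50 after the start) were at hand for 9 members, all but Calb1, and the 250 bases before the start were placed in GRCm39 by exact match, each at 1 position. Capitals mark a match to a searched motif on either strand, and the rest is in lower case.
Umod (thick ascending limb), chr7:119078486-119078735, minus strand: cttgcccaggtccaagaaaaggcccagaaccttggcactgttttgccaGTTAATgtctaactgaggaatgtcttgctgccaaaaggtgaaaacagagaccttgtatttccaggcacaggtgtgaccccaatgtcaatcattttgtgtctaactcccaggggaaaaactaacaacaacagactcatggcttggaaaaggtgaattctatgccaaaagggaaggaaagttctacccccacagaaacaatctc
Slc12a3 (distal convoluted tubule), chr8:95055586-95055835, plus strand: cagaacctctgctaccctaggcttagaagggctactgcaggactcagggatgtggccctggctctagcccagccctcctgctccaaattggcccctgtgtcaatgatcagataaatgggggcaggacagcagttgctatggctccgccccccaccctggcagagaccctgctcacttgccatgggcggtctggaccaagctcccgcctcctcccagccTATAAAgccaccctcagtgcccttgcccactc
Aqp2 (principal cell), chr15:99476687-99476936, plus strand: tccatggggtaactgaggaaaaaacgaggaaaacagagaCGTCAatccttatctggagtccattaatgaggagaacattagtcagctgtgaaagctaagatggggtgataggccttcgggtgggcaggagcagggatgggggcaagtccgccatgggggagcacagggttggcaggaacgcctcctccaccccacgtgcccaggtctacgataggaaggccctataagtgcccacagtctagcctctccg
Atp6v1g3 (intercalated cell), chr1:138201226-138201475, plus strand: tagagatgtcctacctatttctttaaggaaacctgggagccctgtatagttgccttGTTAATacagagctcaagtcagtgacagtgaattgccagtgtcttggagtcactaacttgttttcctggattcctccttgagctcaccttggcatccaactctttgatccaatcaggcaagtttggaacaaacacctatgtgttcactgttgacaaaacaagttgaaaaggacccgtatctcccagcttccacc
Of the 3 motifs searched, GTTAAT, a half-site of the HNF1 homeodomain factors, was found before Umod (from position -202) and before Atp6v1g3 (from position -194). TATAAA, the TATA box, was found before Slc12a3 (from position -32) and Aqp3, and TGACG, a half-site of the cyclic AMP response element, before Aqp2 (from position -211) and Kcnj1. Each thus occurred in 2 of the 9 promoters, and in 6.43%, 12.4% and 17.8% of the 32851 promoters of the table. No motif was shared by all 9, and a match is only a match of letters.

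The level of the distal genes varied more from library to library than that of most genes. From the lowest to the highest of the 12 libraries the CPM of a member changed by a factor of 10.9 (Slc12a1) to 135 (Calb1), with a median of 21.8, against a median of 2.02 over the 15714 tested genes that had a count in every library. For 6 members the lowest library was ByJcl Day 5 replicate 1 and for the other 4 it was ByJcl baseline replicate 1. Ajcl Day 5 replicate 1 was the highest library for 8 members and Ajcl baseline replicate 3 for Slc12a3 and Kcnj1. The members rose and fell with one another. Pearson's r of log2 CPM over the 12 libraries ranged from 0.781 (Aqp3 with Cldn16) to 0.983 (Umod with Kcnj1) among the 45 pairs, with a median of 0.919, and the median was 0.910 for deviations from the group means. Every pair is read over the same 12 libraries, which were uneven in tubular content, and r is given as a description.

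**Figure D1:**
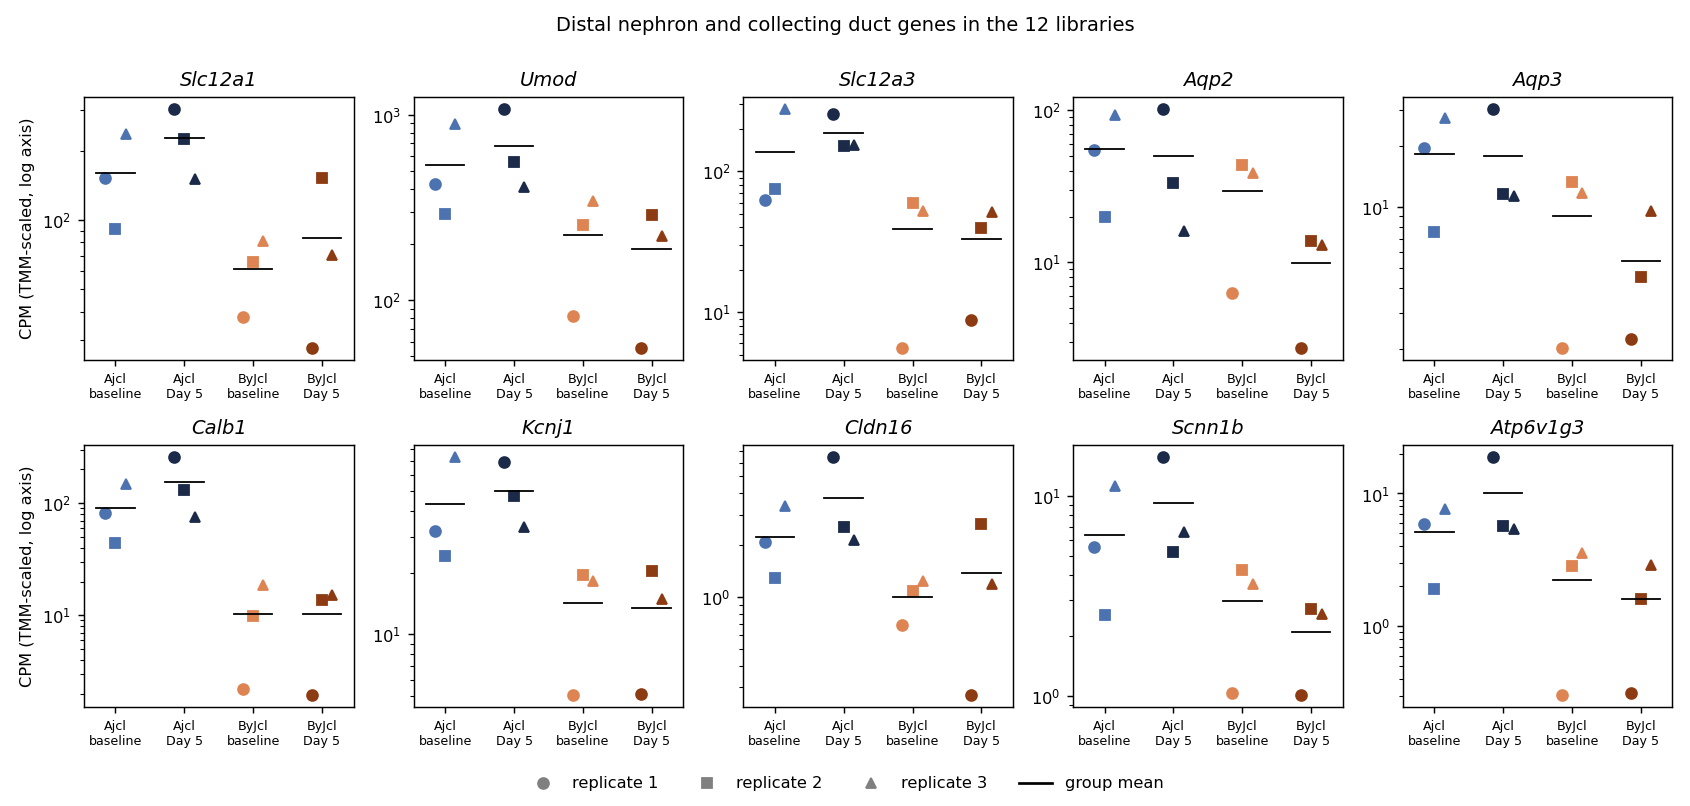
CPM (log axis) of each of the 10 genes in the 12 libraries, by group, with the symbol shape giving the replicate number and the line the group mean. Calb1 ranges from 43.8 to 260 CPM in Ajcl and from 1.93 to 18.7 CPM in ByJcl, and replicate 1 of both ByJcl groups is the lowest point of its group for all 10 genes.

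Per kilobase of annotated exon, which allows levels to be set between genes, Umod was the most abundant member in both substrains, with a median over 6 libraries of 177 CPM per kb in Ajcl and 86.1 CPM per kb in ByJcl. Slc12a1 came next in both (32.6 and 11.8 CPM per kb). Cldn16 and Scnn1b were the least abundant, at 2.00 and 2.06 CPM per kb in Ajcl and 0.975 and 0.895 CPM per kb in ByJcl. Calb1 changed place most, from rank 3 of the 10 in Ajcl (15.0 CPM per kb) to rank 7 in ByJcl (1.65 CPM per kb). Only Umod and Slc12a1 in Ajcl (105 to 388 and 15.8 to 52.6 CPM per kb) were neighbours in this order whose ranges did not overlap, and in ByJcl all neighbours overlapped. The length used is the union of all annotated exons of a gene, such as 12447 bases for Slc12a3 and 7086 for Calb1. The expressed transcripts may be shorter, and the order depends on this choice.

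The comparison of the substrains asks whether the glomerular RNA of Ajcl and ByJcl mice differed before and after ADR. All 10 distal genes were lower in the ByJcl libraries by their fitted fold change at baseline, at Day 5 and averaged over both. The averaged log2 fold change of ByJcl against Ajcl ranged from -1.30 (Cldn16) to -3.53 (Calb1), with 12 libraries in the model. Calb1 was the only member called at an adjusted p below 0.05 (log2 fold change -3.53 ± 0.61, SE, edgeR quasi-likelihood test with Benjamini-Hochberg adjustment, adjusted p = 0.0217), in a contrast where 0.801% of all tested genes were called. It was also the only member called without Ajcl Day 5 replicate 1 (log2 fold change -3.21, adjusted p = 0.0391), where 0.565% of all genes were called.

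Calb1 encodes calbindin, the intracellular calcium buffer of the distal convoluted and connecting tubule. At baseline it was at 81.3, 43.8 and 147 CPM in Ajcl replicates 1 to 3 and at 2.19, 9.75 and 18.7 CPM in ByJcl replicates 1 to 3. At Day 5 it was at 260, 132 and 74.8 CPM in Ajcl and at 1.93, 13.6 and 15.3 CPM in ByJcl. The highest ByJcl library was below the lowest Ajcl library at both times. Within a time the difference missed the threshold (log2 fold change -3.15 ± 0.85 and adjusted p = 0.573 at baseline, -3.92 ± 0.88 and adjusted p = 0.0713 at Day 5). The averaged call depended on which library was left out. It was lost (adjusted p from 0.0514 to 0.0833) without any 1 of 6 libraries: Ajcl baseline replicate 1 or 3, Ajcl Day 5 replicate 2, ByJcl baseline replicate 2, or ByJcl Day 5 replicate 2 or 3. The fold change stayed between -3.92 and -3.21 over all 12 such fits.

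Slc12a3, the thiazide-sensitive sodium chloride cotransporter and the other member of the distal convoluted tubule, was at 62.4, 74.3 and 276 CPM in Ajcl at baseline and at 255, 151 and 155 CPM at Day 5. In ByJcl it was at 5.57, 59.7 and 52.3 CPM at baseline and at 8.75, 39.8 and 51.2 CPM at Day 5. The ByJcl libraries again lay below all Ajcl libraries, though the closest of them (59.7 against 62.4 CPM) nearly met. The averaged log2 fold change was -2.15 ± 0.59 (adjusted p = 0.101).

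In the thick ascending limb, Umod encodes uromodulin, the most abundant protein of normal urine. Its level was 424, 291 and 894 CPM in Ajcl at baseline, and 1071, 553 and 409 CPM at Day 5. In ByJcl it was 82.8, 254 and 341 CPM at baseline, and 55.4, 287 and 222 CPM at Day 5, so the substrains overlapped at baseline and not at Day 5. The averaged log2 fold change was -1.55 ± 0.46 (adjusted p = 0.113). Slc12a1, the furosemide-sensitive sodium, potassium and chloride cotransporter, ranged from 91.1 to 303 CPM in Ajcl and from 27.8 to 153 CPM in ByJcl (-1.41 ± 0.38, adjusted p = 0.0972). Kcnj1, the potassium channel that recycles potassium to the lumen, did not overlap between the substrains (24.1 to 73.7 CPM against 5.03 to 20.3 CPM) and had the smallest adjusted p after Calb1 (-1.75 ± 0.42, adjusted p = 0.0778). Cldn16, a tight junction protein of magnesium and calcium reabsorption, was at 1.29 to 6.52 CPM in Ajcl and 0.269 to 2.67 CPM in ByJcl (-1.30 ± 0.48, adjusted p = 0.162).

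In the principal cells, Aqp2 encodes the water channel that vasopressin moves to the apical membrane, Aqp3 the basolateral water channel and Scnn1b the beta subunit of the epithelial sodium channel. Their averaged log2 fold changes were -1.64 ± 0.60 (adjusted p = 0.163), -1.36 ± 0.50 (adjusted p = 0.167) and -1.61 ± 0.46 (adjusted p = 0.105). All 3 overlapped between the substrains at baseline. Atp6v1g3, a proton pump subunit of intercalated cells, ranged from 1.90 to 19.0 CPM in Ajcl and from 0.301 to 3.53 CPM in ByJcl (-1.91 ± 0.63, adjusted p = 0.134).

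Counted over the members, 0 of 10 were called at baseline and 0 of 10 at Day 5, where 0.114% and 0.433% of all tested genes were called. The counts were the same without Ajcl Day 5 replicate 1, where 0.159% and 0.165% of all genes were. At an unadjusted p below 0.05, with a lower level in ByJcl, the counts were 4 of 10 at baseline, 9 of 10 at Day 5 and 10 of 10 averaged, where 2.75%, 9.61% and 11.3% of all genes were. Without Ajcl Day 5 replicate 1 these counts were 3, 4 and 7 of 10, where 3.94%, 6.41% and 7.26% of all genes were. The baseline count was 1 of 10 without Ajcl baseline replicate 3 (1.32% of all genes) and also without ByJcl baseline replicate 1 (1.81% of all genes). DESeq2's Wald test called 0, 2 (Calb1 and Scnn1b) and 6 (Calb1, Kcnj1, Scnn1b, Slc12a1, Slc12a3 and Umod) of the members, against 0.415%, 5.92% and 7.67% of all genes. Without Ajcl Day 5 replicate 1 it called 0, 1 (Calb1) and 2 (Calb1 and Scnn1b), against 0.606%, 3.86% and 4.53% of all genes. Groups that did not overlap and were lower in ByJcl were found for 5 of 10 members at baseline (Slc12a1, Slc12a3, Calb1, Kcnj1 and Cldn16), 8 of 10 at Day 5 (all but Slc12a1 and Cldn16) and 3 of 10 over both times (Slc12a3, Calb1 and Kcnj1), against 6.5%, 9.43% and 0.74% of all genes. The members are not independent of one another, since their levels rose and fell with the tubular content of the same libraries, and the 3 substrain contrasts share libraries.

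The proximal tubule moved in the same direction. All 18 proximal tubule genes had a negative averaged fold change (median -1.24, or -0.91 without Ajcl Day 5 replicate 1), and 0 of them were called with or without that library. The members' mean centred log2 CPM followed the same mean of the 18 proximal tubule genes over the 12 libraries, with Pearson's r = 0.962 and Spearman's rho = 0.867. The correlation was 0.889 without the 2 libraries farthest from the median and 0.957 for deviations from the group means. These are descriptions over libraries that share their depth and preparation.

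To see which distal genes differed beyond this shared level, the proximal tubule mean was added as a term to the edgeR model, a choice made after the data had been seen. Only 5 of the 12 libraries had a score in the range that both substrains cover (-0.41 to 0.35). The scores of 3 ByJcl libraries lay below those of every Ajcl library, with replicate 1 of both groups the farthest (-1.96 and -2.03), and the scores of 4 Ajcl libraries lay above those of every ByJcl library (up to 1.69). For these 7 the comparison with the term rests on its fitted slope. With it, the averaged fold changes of 9 members moved toward 0, to between -0.91 (Slc12a3) and 0.05 (Aqp2), and none of these 9 was called. Calb1 remained lower in ByJcl, with a log2 fold change of -2.16 ± 0.30 (adjusted p = 0.00869), where 0.355% of all genes were called. The fold change lay between -2.51 and -1.90 when each library was left out in turn, and the call was lost without Ajcl baseline replicate 2 or ByJcl Day 5 replicate 3 (adjusted p up to 0.0860). With the mean of 10 shared distal epithelium genes as the term in its place, Calb1 was at -1.63 ± 0.28 (adjusted p = 0.0472), again as the only member called, where 0.193% of all genes were. With that term 5 of 10 members were negative averaged over the times (median 0.00), 4 at baseline (median 0.08) and 5 at Day 5 (median -0.01). Its 10 genes belong to the same epithelium and were themselves lower in ByJcl (10 of 10 negative, median -1.30). Member values centred near 0 are thus largely built into that term. Of its score too only 5 of 12 libraries lay in the range common to both substrains.

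**Figure D2:**
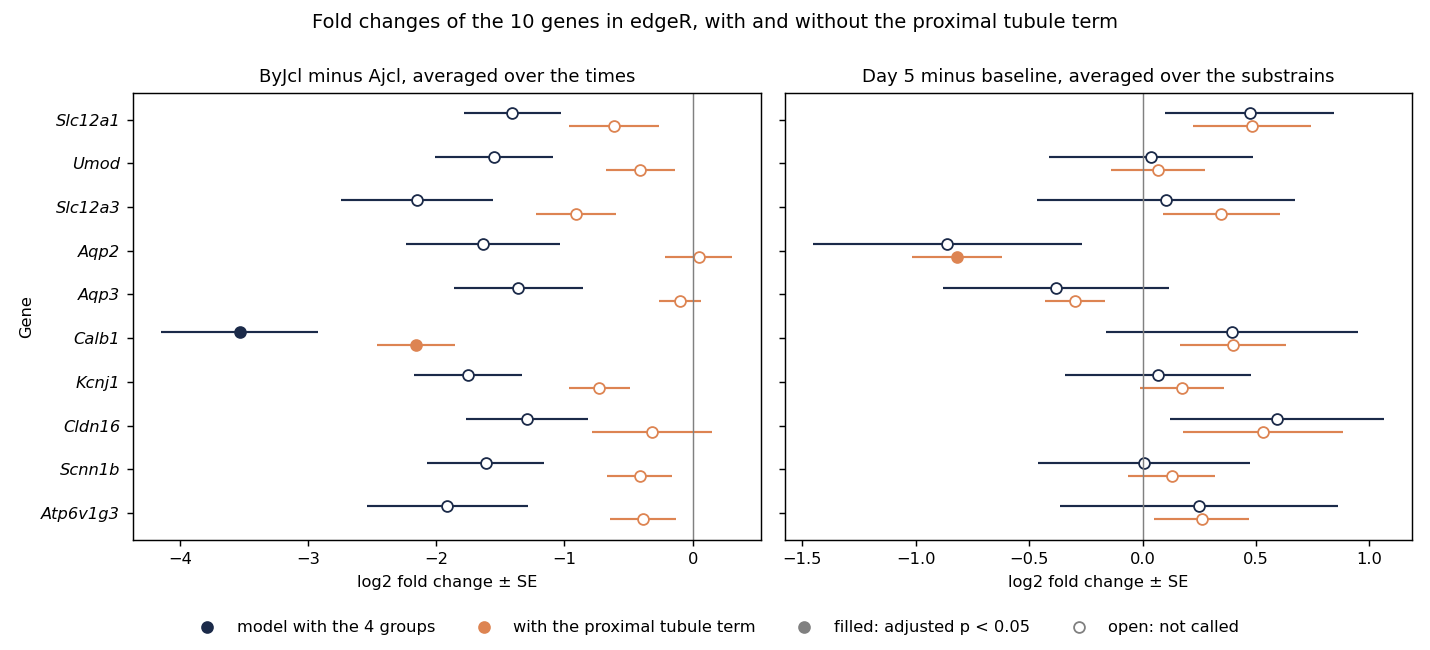
Log2 fold change with its SE of the 10 genes between substrains (left) and between times (right), from the edgeR model with the 4 groups (dark) and with the proximal tubule term added (orange). Filled circles are adjusted p below 0.05, which Calb1 reaches between substrains in both models and Aqp2 between times with the term (-0.82 ± 0.20).

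S100g, a smaller calcium-binding calbindin of the same tubule segments, was picked out after its values were seen, since it went the other way. Without the term it was not called between the substrains (log2 fold change 0.63 ± 0.59, adjusted p = 0.605). It was at 5.64, 2.53 and 6.26 CPM in Ajcl and at 2.07, 15.2 and 17.5 CPM in ByJcl at baseline. At Day 5 it was at 18.6, 4.31 and 3.95 CPM in Ajcl and at 1.97, 14.0 and 10.8 CPM in ByJcl. The lowest ByJcl values were those of the replicates with the least tubular RNA. With the proximal tubule term S100g was higher in ByJcl by 2.12 ± 0.37 on the log2 scale (adjusted p = 0.0276), and with the shared distal term by 2.61 ± 0.36 (adjusted p = 0.0107). The call with the proximal term was lost when any 1 of 6 libraries was left out (adjusted p up to 0.125, fold change from 1.76 to 2.48): replicate 1 or 2 of Ajcl at baseline, replicate 2 of Ajcl at Day 5, or any ByJcl baseline replicate.

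Set against each other within a library, where the tubular content cancels in part, the CPM ratio of S100g to Calb1 was between 0.0427 and 0.0694 in Ajcl at baseline and between 0.0327 and 0.0716 at Day 5. In ByJcl the ratio was between 0.936 and 1.56 at baseline and between 0.708 and 1.04 at Day 5. Every ByJcl library exceeded every Ajcl library, replicate 1 of both ByJcl groups included. The ratio of Calb1 to Slc12a3 was between 0.484 and 1.30 in Ajcl and between 0.163 and 0.394 in ByJcl, and the ratio of S100g to Slc12a3 between 0.0227 and 0.0904 in Ajcl and between 0.211 and 0.371 in ByJcl. Both ratios to Slc12a3 thus separated the substrains, in opposite directions. The other 2 ratios to Slc12a3 that were formed overlapped between the substrains. The ratio of Pvalb, a calcium buffer, to Slc12a3 was between 0.0735 and 0.237 in Ajcl and between 0.0704 and 0.115 in ByJcl. That of Trpv5, an apical calcium channel, was between 0.00880 and 0.0307 in Ajcl and between 0.0144 and 0.0265 in ByJcl, with overlap over both times though not at Day 5 alone (0.0167 to 0.0174 against 0.0196 to 0.0205). These ratios were formed after the values had been seen and carry no test.

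**Figure D3:**
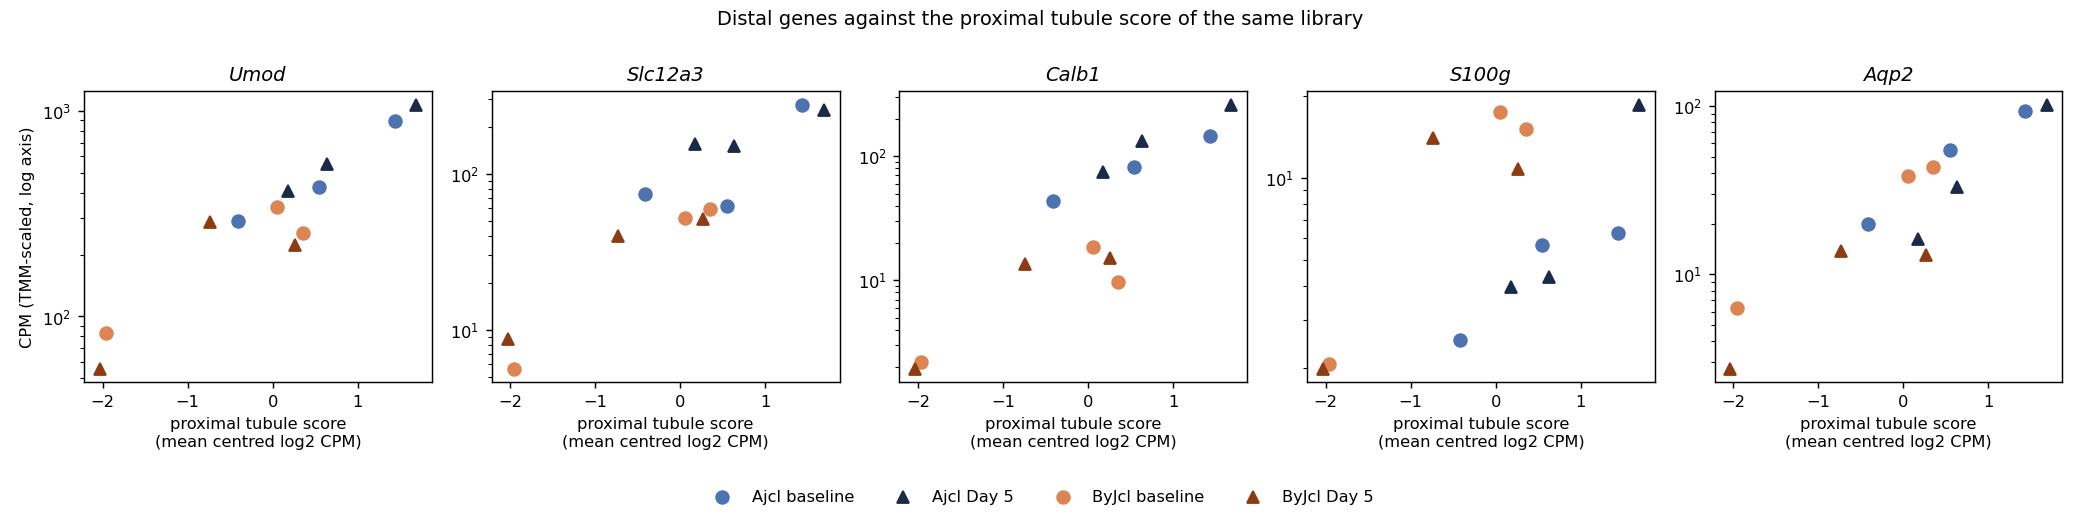
CPM (log axis) of 5 genes against the proximal tubule score of the same library, the mean centred log2 CPM of 18 proximal tubule genes, with 1 point per library. Umod, Slc12a3 and Aqp2 rise with the score, and over the scores that both substrains cover Calb1 lies lower and S100g higher in ByJcl than in Ajcl. Beyond them, at the highest score, S100g is at 18.6 CPM in Ajcl Day 5 replicate 1.

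The wider lists of the same segments held 59 other genes, 58 of them tested. Averaged over the times, 55 of the 58 were negative in ByJcl (median log2 fold change -1.53, against -0.01 over all tested genes), 50 were lower at an unadjusted p below 0.05 (11.3% of all genes) and 4 were called (0.801% of all genes), all lower. Without Ajcl Day 5 replicate 1, 55 were again negative (median -1.23), 45 were lower at an unadjusted p below 0.05 (7.26% of all genes) and 2 were called (Klhl3 and Trpm6, against 0.565% of all genes). Sostdc1, a secreted antagonist of bone morphogenetic proteins, was the 1 called gene of the thick ascending limb list (-1.74 ± 0.32, adjusted p = 0.0299), in which 12 of 12 tested genes were negative. The other 3 belonged to the distal convoluted and connecting tubule list, in which 8 of 10 were negative: Trpm6, the magnesium channel (-1.19 ± 0.21, adjusted p = 0.0239), Klhl3, the substrate adaptor of the ubiquitin ligase that degrades WNK kinases (-0.95 ± 0.17, adjusted p = 0.0299), and Wnk4, the kinase upstream of the sodium chloride cotransporter (-1.25 ± 0.25, adjusted p = 0.0437). Klhl3 was called at Day 5 alone as well (-1.36 ± 0.25, adjusted p = 0.0422), with 22.0, 25.6 and 21.1 CPM in Ajcl against 7.95, 8.43 and 10.3 CPM in ByJcl. Without Ajcl Day 5 replicate 1 that call was lost (adjusted p = 0.0739), while the fold change was -1.39 ± 0.26. With the proximal tubule term, where 0.355% of all genes were called, none of these 4 was called, and the 2 called genes of the 58 were S100g and Pvalb (-1.18 ± 0.21, adjusted p = 0.0358). The call of Pvalb held in 5 of 12 fits that left out 1 library.

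Of the collecting duct lists, 10 of 11 principal cell genes (median -1.43) and 15 of 15 intercalated cell genes (median -1.56) were negative, with 0 called in either. The shared distal epithelium list had 10 of 10 negative (median -1.30) and 0 called. None of these 3 lists had a called gene without Ajcl Day 5 replicate 1. Sgk1, Nr3c2 and Nedd4l, which many cell types besides principal cells express, had small fold changes of 0.13, -0.23 and -0.23 on the log2 scale. The macula densa list of 4 genes had 2 negative, and Oxtr, the oxytocin receptor, was called higher in ByJcl (0.67 ± 0.14, adjusted p = 0.0490, or 0.0839 without Ajcl Day 5 replicate 1). All 4 were at an unadjusted p below 0.05, as were 20.1% of all genes. At baseline Nos1 (2.59 to 4.25 CPM in Ajcl, 0.797 to 0.882 CPM in ByJcl) and Pappa2 (1.71 to 2.44 and 0.461 to 0.818 CPM) were lower in ByJcl without overlap. At Day 5 both overlapped between the substrains.

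**Figure D4:**
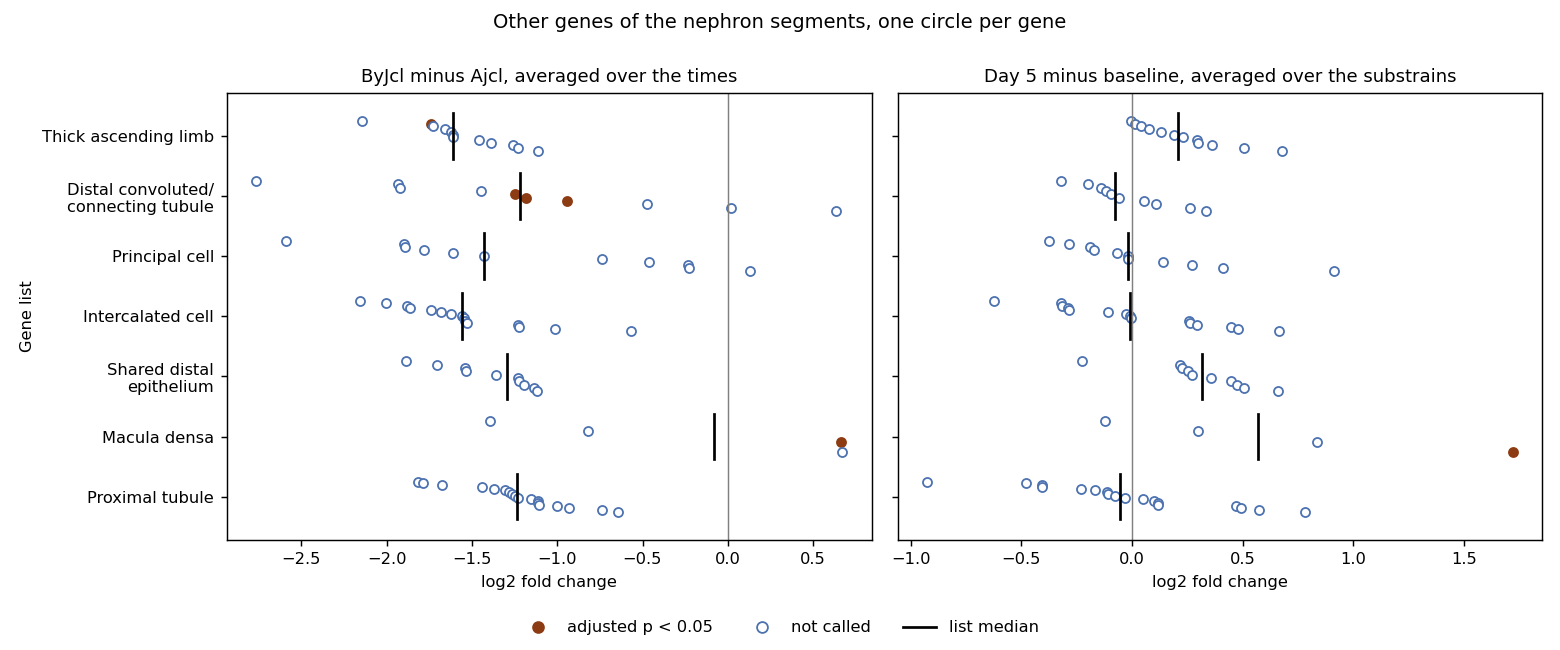
Log2 fold change of the other genes of each segment list between substrains (left) and between times (right), 1 circle per gene, with the list median as a line and genes called at adjusted p below 0.05 filled. The substrain medians of the 5 distal lists lie between -1.22 and -1.61 and the proximal tubule median at -1.24, while their medians between times, the proximal tubule included, lie between -0.08 and 0.31. Without Ajcl Day 5 replicate 1 the proximal tubule median between times is -0.39.

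Lists of other cell types were read beside these. Podocyte genes had a median averaged substrain fold change of -0.17 (0 of 8 called), with 8 of 8 positive at baseline (median 0.19) and 8 of 8 negative at Day 5 (median -0.53, 5 at an unadjusted p below 0.05, 0 called). The averaged median was 0.01 for glomerular endothelial genes (0 of 7 called) and 0.22 for mesangial and smooth muscle genes (0 of 6 called, or 1, Tagln, without Ajcl Day 5 replicate 1). Immune genes were higher in ByJcl in 7 of 7 (median 1.06), and Cd68 was called (adjusted p = 0.0304, or 0.0545 without Ajcl Day 5 replicate 1). Immune sums were 14.2 to 51.9 CPM in Ajcl and 53.9 to 121 CPM in ByJcl, and their part in the distal difference was not tested. The 1 tested erythroid gene, Alas2, had a substrain fold change of -0.23, not called, and fell after ADR by 3.68 on the log2 scale.

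The comparison of Day 5 with baseline asks what ADR changed before overt injury. No distal member was called in Ajcl, in ByJcl or averaged over both, with or without Ajcl Day 5 replicate 1, where 0.325%, 7.21% and 9.63% of all tested genes were called with all libraries and 0.312%, 10.6% and 10.4% without that one. At an unadjusted p below 0.05 the counts were 0, 0 and 0 of 10, where 9.1%, 22.2% and 24% of all genes were, and without Ajcl Day 5 replicate 1 the averaged count was 1, where 24.8% of all genes were. DESeq2 called 0, 0 and 0 of 10, where it called 1.96%, 12% and 14.3% of all genes. In both substrains the Day 5 libraries of all 10 members overlapped the baseline libraries. Overlap between the times was not counted over all genes. The averaged fold changes ranged from -0.86 ± 0.59 (Aqp2) to 0.59 ± 0.47 (Cldn16), with SEs of 0.37 to 0.61 over the members, and none of these passed the test in this model. Beside these values, 8 of 8 podocyte genes were called lower at Day 5 averaged over the substrains (median -0.83, or -0.75 without Ajcl Day 5 replicate 1) and in ByJcl (median -1.19), while in Ajcl 8 of 8 were negative (median -0.50) and 0 called. The part of this fall in the distal values was not tested. Baseline and Day 5 counts were deposited as separate tables, so that time and table cannot be told apart.

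By segment, the averaged log2 fold change after ADR was 0.47 for Slc12a1, 0.04 for Umod, 0.07 for Kcnj1 and 0.59 for Cldn16 in the thick ascending limb. In the distal convoluted tubule it was 0.10 for Slc12a3 and 0.39 for Calb1. In the collecting duct it was -0.86 for Aqp2, -0.38 for Aqp3, 0.00 for Scnn1b and 0.25 for Atp6v1g3. Adjusted p over the 10 genes ranged from 0.423 (Aqp2) to 0.997 (Scnn1b). The effect within Ajcl ranged from -0.15 (Aqp2) to 0.97 (Atp6v1g3), and within ByJcl from -1.57 (Aqp2) to 0.45 (Cldn16). The median effect within Ajcl was 0.47, with 2 of 10 negative, and 0.01, with 5 of 10 negative, without Ajcl Day 5 replicate 1. Over the 12 fits that left out 1 library, the Ajcl effect lay between -1.16 and 0.47 for Aqp2 and between 0.14 and 1.41 for Atp6v1g3. The interaction, the ADR effect in ByJcl minus that in Ajcl, was negative in all 10, from -0.06 ± 0.74 (Slc12a1) to -1.44 ± 1.23 (Atp6v1g3), with 0 of 10 called with or without Ajcl Day 5 replicate 1, 0 at an unadjusted p below 0.05 and 0 by DESeq2. Its median over the members was -0.69 with all libraries. It was -0.18, with 8 of 10 negative, without Ajcl Day 5 replicate 1, and -0.28, with 7 of 10 negative, without ByJcl Day 5 replicate 1. Over all 12 fits that left out 1 library it lay between -1.28 and -0.18, with the most negative values without Ajcl baseline replicate 3 (-1.28), ByJcl baseline replicate 1 (-1.22) and ByJcl Day 5 replicate 3 (-1.21). Over all genes the interaction gave 0% by edgeR, 4.82% at the unadjusted threshold and 0.0421% by DESeq2.

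Aqp2 had the lowest averaged fold change after ADR of the 10 members. Its level was 54.7, 19.8 and 92.9 CPM in Ajcl at baseline and 102, 33.2 and 16.1 CPM at Day 5. In ByJcl it was 6.33, 43.4 and 38.5 CPM at baseline and 2.73, 13.8 and 13.1 CPM at Day 5. The groups overlapped in both substrains. With the proximal tubule term the averaged log2 fold change at Day 5 was -0.82 ± 0.20 (adjusted p = 0.0183), and Aqp2 was the 1 member of 10 called, a share no higher than the 12.4% of all genes called. The value changed little from that without the term (-0.86 ± 0.59, adjusted p = 0.423), while its SE fell. Without the term it lay between -1.37 and -0.55 over 12 fits that left out 1 library, and was called in 0 of them (adjusted p from 0.16 to 0.66). Of the 18 genes behind the term, 4 were themselves called after ADR with it (Slc6a19, Slc22a8 and Slc5a12 higher, Slc7a13 lower). Aqp2 stayed called in each of 12 fits that left out 1 library, with fold changes from -1.04 to -0.65 and adjusted p up to 0.0494. With the shared distal term it was at -1.36 ± 0.21 (adjusted p = 0.00156), and with that term it was called within ByJcl too (-1.47 ± 0.29, adjusted p = 0.00934). Of the 10 genes behind that term, 9 had a positive averaged fold change after ADR without it (median 0.31). With it 8 of 10 members were negative after ADR (median -0.22), against 2 of 10 without it (median 0.08). The larger fall of Aqp2 with that term is read with this shift of the members. Aqp2 was again the 1 member of 10 called in each, close to the background of 10.1% and 8.76% of all genes. These counts are not a result about the members as a group. Within Ajcl it was not called with either term (-0.65 ± 0.28 and -1.25 ± 0.30, adjusted p = 0.448 and 0.139), and the interaction with the proximal term was -0.33 ± 0.41.

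Relative to other principal cell genes of the same library, the CPM ratio of Aqp2 to Scnn1b was between 7.83 and 9.86 in Ajcl at baseline and between 2.44 and 6.50 at Day 5. In ByJcl the ratio was between 6.13 and 10.6 at baseline and between 2.71 and 5.10 at Day 5. Within each substrain all Day 5 libraries were below all baseline libraries. The ratio of Aqp2 to Aqp3 overlapped between the times in Ajcl (2.62 to 3.38 at baseline, 1.42 to 3.35 at Day 5), while in ByJcl it was 3.13 to 3.28 at baseline and 1.22 to 3.05 at Day 5, with no overlap. Aqp3 itself was at -0.30 ± 0.13 with the proximal term (adjusted p = 0.166). Avpr2, the vasopressin receptor upstream of Aqp2, was at -0.32 ± 0.29 with the proximal term (adjusted p = 0.538) and at -0.92 ± 0.25 with the shared distal term (adjusted p = 0.0398). The ratio of Aqp2 to Slc12a1, a gene of the thick ascending limb, overlapped between the times in both substrains. It was 0.218 to 0.393 at baseline and 0.107 to 0.336 at Day 5 in Ajcl. In ByJcl it was 0.166 to 0.662 at baseline and 0.0905 to 0.187 at Day 5. The ratios were formed after the values had been seen and carry no test.

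Among the 58 wider distal genes, 0 were called after ADR in Ajcl, ByJcl or averaged, and the averaged median was 0.12 against 0.02 over all genes. Without Ajcl Day 5 replicate 1 the median was -0.10, and 1 of the 58 was called, in ByJcl, where 10.6% of all genes were: Nr3c2, the mineralocorticoid receptor (-0.52 ± 0.15, adjusted p = 0.0491, against -0.50 ± 0.17 and adjusted p = 0.109 with all libraries). The median of the 18 proximal tubule genes moved from -0.05 to -0.39 without that library, with 13 of 18 negative and 0 called. The smallest adjusted p values of each list belonged to Sostdc1 (0.50), Wfdc15b (0.68) and Egf (0.29) in the thick ascending limb, Klhl3 (-0.32), Trpm6 (-0.20) and Slc8a1 (-0.12) in the distal convoluted and connecting tubule, Sgk1 (0.27), Nr3c2 (-0.28) and Elf5 (0.91) in principal cells, Slc4a1 (-0.63), Oxgr1 (0.66) and Atp6v0a4 (0.48) in intercalated cells, and Wfdc2 (0.66), Epcam (0.47) and Kcnj16 (0.50) in the shared list, each with its averaged log2 fold change. Their adjusted p ranged from 0.117 (Sgk1) to 0.631 (Slc8a1). With the proximal tubule term 2 of the 58 were called, a smaller share than the 12.4% of all genes: Atp6v0a4, a proton pump subunit (0.52 ± 0.12, adjusted p = 0.0137), and Kcnj16, a basolateral potassium channel (0.56 ± 0.16, adjusted p = 0.0395), both higher at Day 5.

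Pappa2, a protease of insulin-like growth factor binding proteins made by the macula densa and the neighbouring thick ascending limb, rose after ADR. It was at 1.71, 2.13 and 2.44 CPM in Ajcl and at 0.818, 0.461 and 0.583 CPM in ByJcl at baseline. At Day 5 it was at 2.64, 5.39 and 2.86 CPM in Ajcl and at 2.33, 7.35 and 2.05 CPM in ByJcl. Every Day 5 library was above every baseline library of its substrain, though in Ajcl the closest of them (2.64 against 2.44 CPM) nearly met. The ByJcl baseline counts of Pappa2 were low, at 38, 22 and 32. How many of all genes were separated in this way between the times was not counted. The averaged log2 fold change was 1.72 ± 0.35 (adjusted p = 0.00923), with 2.65 ± 0.51 in ByJcl (adjusted p = 0.0104) and 0.79 ± 0.47 in Ajcl (adjusted p = 0.722). Without Ajcl Day 5 replicate 1 it was called in the same 2 contrasts (1.81 ± 0.36, adjusted p = 0.00949, and 2.64 ± 0.50, adjusted p = 0.00937). Its level did not follow the proximal tubule score (r = 0.119 over 12 libraries), and with that term the averaged fold change was 1.72 ± 0.34. Of the other macula densa genes, Nos1 was at 0.84 ± 0.31 (adjusted p = 0.121), Ptgs2, the inducible cyclooxygenase, at 0.30 ± 0.23 (adjusted p = 0.481) and Oxtr at -0.12 ± 0.14 (adjusted p = 0.633).

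The 8 tested genes whose log2 CPM was most like the members' mean over the 12 libraries were Rhcg, Tmem52b, Tmem213, Pigr, Cldn8, Klk1, Nkain1 and Mal2, with Pearson's r from 0.991 (Rhcg, an ammonia transporter of the collecting duct) to 0.987 (Mal2). Rhcg, Tmem213 and Klk1 were on the lists of distal genes. Klk1, tissue kallikrein of the connecting tubule, was the most abundant of them in CPM, ranging from 17.2 to 846 CPM.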

How the data were processed

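Strand-specific poly(A) libraries from bead-isolated glomeruli were sequenced as paired ends. The authors used Trimmomatic for trimming, STAR for alignment (GRCm39) and featureCounts for counting, and deposited raw counts per gene, not normalized or pooled. The gene annotation and the counting mode are not given in the sources used here. Of the counts from 1 to 49, 77.1% to 82.9% per library were even, as would arise if both mates of a pair were counted. A count may then stand for about 1 fragment per 2 counts. All deposited count columns were used, and each was tied to its group by the sample labels. Whether mice of 1 group shared a litter or cage is not given, so p-values measure the spread between these libraries. As a check for a library deposited more than once, no pair of replicates agreed within sampling noise (chi-square per degree of freedom 44.6 to 271).

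Counts were tested in R 4.3.3 with edgeR 4.0.16, by the quasi-likelihood test with TMM scaling, filterByExpr by group and 1 coefficient for each of the 4 groups (8 residual degrees of freedom). P-values of 7 contrasts were adjusted by Benjamini-Hochberg over all 16612 tested genes, with calls at an adjusted p below 0.05. DESeq2 1.42.0 was an alternative, as were other scalings, filters, left-out libraries, a replicate block and halved counts. Proximal tubule and shared distal terms are the mean centred log2 CPM (prior count 2) of 18 and 10 genes. All members are named, with up to 3 genes of each wider list by adjusted p after ADR, any called otherwise, and the 8 genes most like the members. The members and lists were chosen with earlier results of these data known. Coordinates and exon lengths came from GENCODE, and promoter sequences from RefSeq. The lowest count of a member in a library was 12.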

Additional observations from a re-analysis of the deposited data

How the results depend on the processing

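The averaged substrain fold changes kept their negative sign in all 200 values of the 10 members under 20 other settings, and those at baseline and at Day 5 in all 210 values each. With the shared distal term, added after the data were seen, 5, 4 and 5 of 10 were negative averaged, at baseline and at Day 5, and with the proximal tubule term 9, 9 and 10. The genes of the shared distal term are distal themselves, so member values centred near 0 are largely built into it. The count of members called did change with the method and the libraries. DESeq2 called 6 members between substrains averaged over the times and 2 at Day 5, and 2 and 1 of them without Ajcl Day 5 replicate 1 (4.53% and 3.86% of all genes), against 1 and 0 by edgeR. Leaving out 1 library gave between 0 and 2 called members averaged over the times and between 0 and 1 at Day 5, the highest without Ajcl Day 5 replicate 3, where 4.95% and 4.68% of all genes were called against 0.801% and 0.433% with it. With the proximal tubule term 1 member (Aqp2) was called after ADR averaged over the substrains, and with the shared distal term 1 averaged and 1 in ByJcl, against 0 in the model of the 4 groups. Uncalled ADR fold changes changed sign in 30 of 200 values averaged, 21 of 200 in Ajcl and 17 of 200 in ByJcl, and the interaction in 11 of 200. Among the larger of them, without ByJcl Day 5 replicate 2 the ByJcl change of Cldn16 went from 0.45 to -0.48 and that of Slc12a1 from 0.44 to -0.36, without Ajcl Day 5 replicate 1 the Ajcl change of Scnn1b went from 0.52 to -0.08, and without Ajcl baseline replicate 3 that of Aqp2 went from -0.15 to 0.47. Leaving out both ByJcl libraries of lowest tubular RNA kept Calb1 as the 1 member called (-3.03, adjusted p = 0.0227). Halved counts, offered because most low counts are even, also left Calb1 as the 1 member called. Why these settings differ was not tested.

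Same-numbered libraries came from different mice. Their deviations from the group means correlated above 0.1 in 6 of 18 pairs (r from -0.31 to 0.41), with the highest r for replicate 1 of the ByJcl groups. Whether same-numbered libraries shared a preparation is not given, and these values cannot decide it. With the replicate block, 1 member was called in the averaged substrain contrast, Calb1 at -3.80 (adjusted p = 0.0429), 0 in each other contrast, and the calls over all genes in that contrast went from 133 to 87 and in the Ajcl ADR contrast from 54 to 26.

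Over all genes, and leaving aside the settings added after the data were seen, the calls under the other edgeR settings ranged from 54 to 839 averaged between substrains (133 in the model used), from 10 to 793 at Day 5 (72), from 11 to 27 at baseline (19), from 13 to 148 for ADR in Ajcl (54), from 430 to 1800 in ByJcl (1197), from 1010 to 2019 averaged (1600) and from 0 to 2 for the interaction (0). The top values averaged between substrains and at Day 5 came without Ajcl Day 5 replicate 3, and that at baseline without Ajcl Day 5 replicate 1. Among the added settings, the shared distal term gave 32 calls averaged between substrains, and for ADR averaged the proximal tubule term gave 2052 and leaving out both ByJcl libraries of lowest tubular RNA 985. DESeq2 called 1249, 926, 69, 326, 1999, 2381 and 7 genes in the same order. Scaling by total counts alone gave 57 higher and 49 lower genes averaged between substrains against 87 and 46, and 37 and 25 at Day 5 against 51 and 21.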
